A study of Mus musculus with 8 samples.

Results

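The 10 genes described here belong to the bone morphogenetic protein (BMP) and transforming growth factor beta (TGF-beta) signalling pathway, and were chosen by name: Bmpr1a, Tgfbr1, Smad1, Smad4, Smad5, Smad6, Smad7, Id1, Id2 and Id3. The arrays carried 15 probes for these 10 genes, out of 39429 probes in all, and all 10 genes were among the 19122 genes tested. The cells were early erythroid progenitors of C57BL/6 mice, taken from E14.5 fetal liver, depleted of mature blood cells and of other progenitors, and sorted for c-kit and for low CD71 (10%low in the label). They were infected with a virus encoding a first (shRNA1) or a second (shRNA2) short hairpin RNA against an RNA-binding protein, or with a control virus, and were cultured for 3 days. DEX is the label of the culture additive, a glucocorticoid by the title of the series. The 4 groups of 2 arrays were shRNA1 with DEX, shRNA2 with DEX, control virus with DEX and control virus without DEX. No group combined a hairpin with culture without DEX.

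In this pathway, a ligand binds a complex of type I and type II receptor kinases, and the type I receptor phosphorylates receptor-regulated Smads. These join Smad4, enter the nucleus and act on transcription, and the inhibitory Smads feed back on the receptors. The Id genes are widely used readouts of BMP signalling. Id proteins carry a helix-loop-helix but no DNA-binding basic region, and they sequester E proteins that would otherwise pair with factors such as Tal1 in blood cells. BMP signalling is known for its part in stress erythropoiesis in the mouse spleen.

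Id2, Id3 and Bmpr1a had the largest differences between cultures with and without DEX among the members that were well above background on every array, with Id2 and Bmpr1a higher and Id3 lower with DEX. The stretches of 250 bases before the start of these genes and of Tgfbr1 are shown, read 5′ to 3′ from RefSeq on GRCm38.p6, because the differences with DEX concern these genes. Capitals mark matches to GGCGCC (a GC-rich motif bound by BMP-responsive Smads), to CAGAC or its reverse complement GTCTG (a Smad motif), and to TGTTCT or its reverse complement AGAACA (a half-site of the glucocorticoid receptor), searched on both strands; the 3 motifs share no overlapping match here. The Id2 stretch is chr12:25096093-25096342 on the minus strand, that of Id3 is chr4:136143572-136143821 on the plus strand, that of Bmpr1a is chr14:34502547-34502796 on the minus strand, and the first of 2 listed starts of Tgfbr1 gave chr4:47352972-47353221 on the plus strand.
Id2: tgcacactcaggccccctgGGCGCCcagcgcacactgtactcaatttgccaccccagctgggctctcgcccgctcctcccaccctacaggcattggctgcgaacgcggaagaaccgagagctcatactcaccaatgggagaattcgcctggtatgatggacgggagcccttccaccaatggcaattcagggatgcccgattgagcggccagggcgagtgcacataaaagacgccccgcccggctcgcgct
Id3: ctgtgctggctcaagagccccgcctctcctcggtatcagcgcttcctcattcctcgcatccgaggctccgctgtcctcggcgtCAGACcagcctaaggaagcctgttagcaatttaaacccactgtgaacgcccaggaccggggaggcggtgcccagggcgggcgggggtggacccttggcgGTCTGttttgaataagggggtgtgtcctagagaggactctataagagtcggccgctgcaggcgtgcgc
Bmpr1a: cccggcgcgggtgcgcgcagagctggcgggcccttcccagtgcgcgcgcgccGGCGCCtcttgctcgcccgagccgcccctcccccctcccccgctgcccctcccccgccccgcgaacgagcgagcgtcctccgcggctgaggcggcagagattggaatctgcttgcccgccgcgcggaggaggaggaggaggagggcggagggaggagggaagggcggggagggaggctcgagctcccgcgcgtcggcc
Tgfbr1: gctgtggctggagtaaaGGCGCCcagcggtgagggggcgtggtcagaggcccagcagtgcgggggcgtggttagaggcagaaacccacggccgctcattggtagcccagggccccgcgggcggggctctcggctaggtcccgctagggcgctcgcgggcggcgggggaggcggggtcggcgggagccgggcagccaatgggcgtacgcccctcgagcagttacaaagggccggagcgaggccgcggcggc
Id2, Bmpr1a and Tgfbr1 each held 1 GGCGCC, beginning 231, 198 and 233 bases before the start, and 9.59% of 32851 stretches of this length in the table held it. Id3 held 2 matches to the CAGAC motif, at 167 and 68 bases before the start, against 42.2% of stretches with at least 1. None of the 4 stretches held the glucocorticoid receptor half-site, which 16.1% of all stretches held. Among the members not shown, the Smad6 stretch held 1 such half-site, beginning 76 bases before the start. Of 3 listed starts of Smad5, the second held 1 GGCGCC, beginning 19 bases before it. The third held 1 CAGAC, at 21 bases, and the first held no match. The Smad1 stretch held no match. The second start of Tgfbr1 held 0 GGCGCC and 1 CAGAC. No stretch of Id1, Smad4 or Smad7 was searched. A match is a description of the letters and not a binding site.

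A level here is the log2 of a probe's signal minus the 75th percentile of its array, so that 0 is the 75th percentile, and a difference is a log2 difference of levels with the standard error (SE) of the limma fit over the 8 arrays. The 75th percentile of signal lay between 474 and 2066 units, and 58.9% to 62.5% of probes were well above background on an array. The arrays lay on 2 slides, each holding all 4 groups, with replicate 1 of each group on the first and replicate 2 on the second. With 2 arrays a group an exact permutation test cannot go below p = 0.333. Separate cultures for the replicates are not stated in the labels, so the p-values may rest on technical spread alone. Zfp36l2, which is the targeted RNA-binding protein by knowledge of the published study and not by the labels, had levels of 4.09 and 3.91 with shRNA1, 4.13 and 3.69 with shRNA2, 5.56 and 5.42 in control cells with DEX and 3.49 and 3.86 without DEX. Erythroid markers (9 of 10 measured) were high on every array, with mean levels of 4.21 to 5.88.

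No member passed the threshold (limma, Benjamini-Hochberg adjusted p below 0.05 over all genes) in any comparison, with or without the slide as a block. Among all genes tested, 0% passed in each comparison without the block, and with it 0.22% passed for DEX, 0% for shRNA1 and 0.00523% for shRNA2. At an unadjusted p below 0.05 without the block, Id2 and Id3 were counted for DEX (2 of 10, against 3.14% of all genes), Id1 for shRNA1 (1 of 10, against 2.13%) and no member for shRNA2 (0 of 10, against 1.24%). With the block the counts were 4 of 10 for DEX (Bmpr1a, Id2, Id3 and Smad7, against 9.53%), 2 of 10 for shRNA1 (Bmpr1a and Id1, against 17.8%) and 0 of 10 for shRNA2 (against 5.72%). The control arrays with DEX enter all 3 of these comparisons, so their chance deviations pull the DEX difference and the hairpin differences in opposite directions. The values that follow are therefore descriptions with their errors.

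Markers of cell identity differed between the same groups, and their part in the differences described here was not tested. The erythroid list, 9 of 10 genes measured, had summed levels (sums of signals in units of the array's 75th percentile) of 1742 and 671 with shRNA1, 1214 and 440 with shRNA2, 846 and 429 in control cells with DEX and 1157 and 645 without DEX. On the arrays 7 of these 9 genes were wholly lower with DEX in control cells, that is with no overlap between the groups. The share of all genes was 17.2%. Wholly lower with DEX were also 8 of 10 megakaryocyte, 6 of 9 monocyte, 3 of 12 granulocyte and 3 of 6 mast cell and basophil markers. Of the 9 erythroid genes, 5 were wholly higher with shRNA1 than in control cells with DEX (17.9% of all genes), and 0 with shRNA2 (7.38%). Granulocyte markers, 12 of 12 measured, summed to 132 and 144 with shRNA1, 546 and 89.4 with shRNA2, 37.0 and 65.2 in control cells with DEX and 40.5 and 182 without DEX. All 12 were wholly higher with shRNA1 than in control cells with DEX (17.9% of all genes), and all 12 with shRNA2 (7.38%). Megakaryocyte markers, 10 of 10 measured, summed to 81.7 and 23.5 with shRNA1, 199 and 15.2 with shRNA2, 31.6 and 19.3 in control cells with DEX and 53.8 and 74.3 without DEX. Monocyte markers, 9 of 10 measured with Fcgr1 not tested, summed to 9.36 and 3.68 with shRNA1, 17.0 and 2.31 with shRNA2, 3.20 and 1.55 in control cells with DEX and 4.09 and 6.26 without DEX. Of the mast cell and basophil markers, 6 of 9 measured, 4 were lower and 2 higher with DEX in control cells. Their median difference was -1.06, against -0.082 for all genes. The sums, which the brightest genes dominate, were 40.5 and 12.02 with shRNA1 and 35.3 and 15.03 with shRNA2. In control cells these sums were 44.6 and 17.0 with DEX and 6.18 and 11.3 without DEX. By sum, all 6 arrays with DEX lay above both without it. Hepatocyte markers, 6 of 9 measured, did so too, with sums of 2.53 and 1.56 with shRNA1, 2.26 and 1.43 with shRNA2, 2.75 and 1.58 in control cells with DEX and 1.27 and 1.35 without DEX, while Alb and Ttr were not well above background in any whole group. Endothelial and stromal markers, 6 of 10 measured and Cdh5 not well above background in any whole group, summed to 7.86 and 3.21 with shRNA1, 6.42 and 2.58 with shRNA2, 4.41 and 2.58 in control cells with DEX and 4.15 and 2.58 without DEX. Pdgfrb of that list, named after its values were seen, had levels of -0.90 and -1.32 in control cells with DEX, against -2.93 and -3.31 without DEX, and passed the threshold with the block (difference 2.01, limma adjusted p = 0.0432) but not without it (0.402). In bulk RNA such as this, fewer cells of a type and less RNA per cell cannot be told apart.

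**Figure D1:**
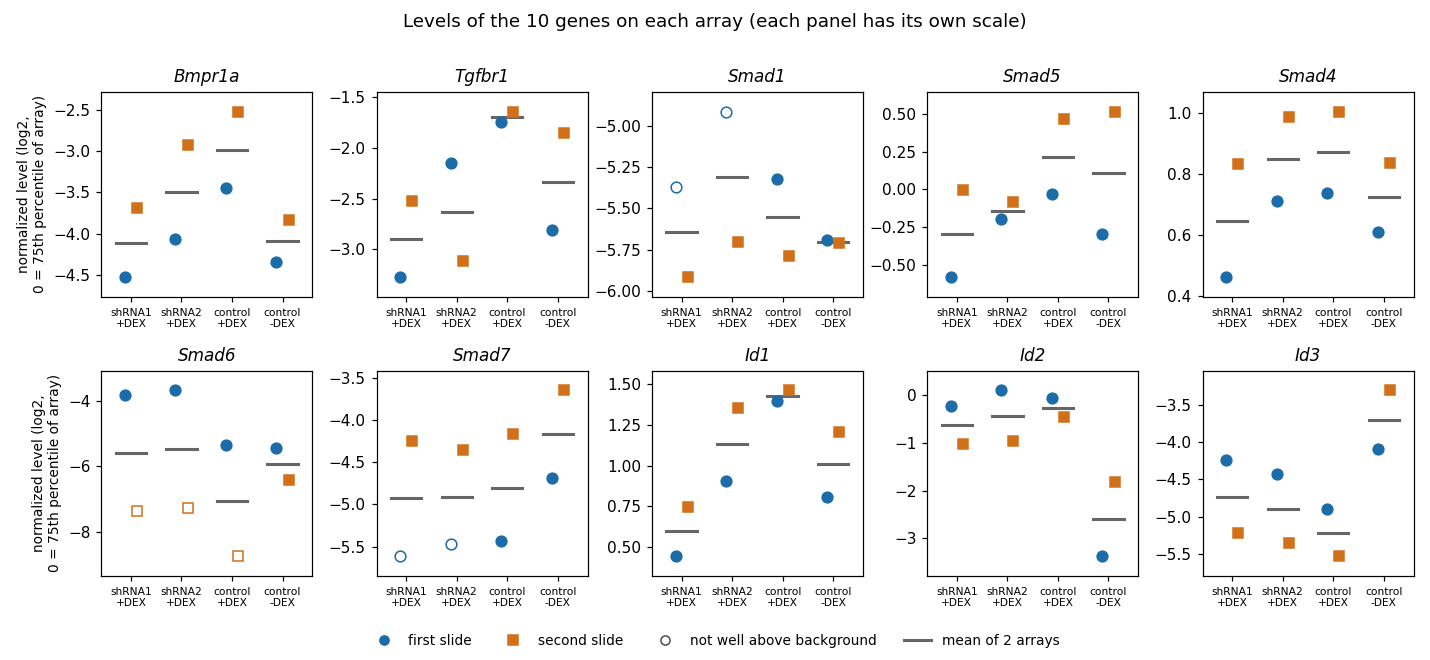
Normalized level (log2, 0 at the 75th percentile of the array) of each of the 10 genes on each of the 8 arrays, with a bar at the mean of the 2 arrays of a group and open symbols for arrays on which the probe was not well above background. Id2 lies between -3.37 and -1.81 without DEX and at -1.04 or higher on the 6 arrays with DEX, and Smad6 is lower on the second slide in every group.

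Id2 and Id3 separated all arrays with DEX from both arrays without it, in opposite directions. The share of all genes with such a split of 2 arrays from the other 6, here and below, was not counted. Between the 2 control groups alone, 27.3% of all genes did not overlap. The Id2 probe lies at chr12:25778904-25778963 (build mm9). In control cells with DEX its levels were -0.073 and -0.45, against -3.37 and -1.81 without DEX. With shRNA1 they were -0.23 and -1.04, and with shRNA2 0.095 and -0.96. All 6 arrays with DEX lay above both arrays without it. The 3 groups with DEX overlapped each other. The DEX difference was 2.33 (SE 0.65, 95% interval 0.75 to 3.90), a fold of 5.02, with slide values of 3.30 and 1.36 (limma adjusted p = 0.957, with the block 0.279). The differences of the hairpins from control cells with DEX were -0.37 (SE 0.65) for shRNA1 and -0.17 (SE 0.65) for shRNA2. The DEX difference was 1.55 without control without DEX replicate 1, and 0.65 with the planned normexp background correction (1.77 after limiting the local background of a few spots where it was very high).

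For Id3 all 6 arrays with DEX lay below both arrays without it. Its probe covers chr4:135700075-135700249 (mm9) as the file gives the span. In control cells with DEX the levels were -4.90 and -5.53, against -4.10 and -3.30 without DEX, so the control groups did not overlap. They were -4.24 and -5.22 with shRNA1 and -4.43 and -5.35 with shRNA2, so that each hairpin group overlapped the control group with DEX. The DEX difference was -1.52 (SE 0.54, 95% interval -2.84 to -0.19), which is 2.86-fold lower with DEX, with slide values of -0.81 and -2.23 (limma adjusted p = 1, with the block 0.347). The hairpin differences were 0.49 (SE 0.54) for shRNA1 and 0.33 (SE 0.54) for shRNA2. In the authors' log2 values the DEX difference was -0.77, and it was -0.16 with the planned normexp and -0.61 after limiting the local background.

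Id1, the Id gene most often used to read BMP signalling, had its lowest levels with shRNA1. The probe lies at chr2:152563083-152563142 (mm9). The levels were 0.44 and 0.75 with shRNA1, 0.91 and 1.36 with shRNA2, 1.40 and 1.46 in control cells with DEX and 0.81 and 1.21 without DEX. Both shRNA1 arrays lay below the other 6 arrays, and both control arrays with DEX lay above the other 6. With shRNA1 the difference was -0.83 (SE 0.32, 95% interval -1.62 to -0.051), which is 1.78-fold lower, with slide values of -0.95 and -0.72 (limma adjusted p = 0.922, with the block 0.236). With shRNA2 the difference was -0.30 (SE 0.32), and with DEX it was 0.42 (SE 0.32), at 0.59 and 0.26 on the slides. Between the hairpins, shRNA1 minus shRNA2, the Id1 difference was -0.54 (SE 0.32, 95% interval -1.32 to 0.25; limma adjusted p = 1, with the block 0.424). The median of all genes with shRNA1 was 0.18 as scaled here and -0.22 with the array median as the scale, where the Id1 difference was -1.23.

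**Figure D2:**
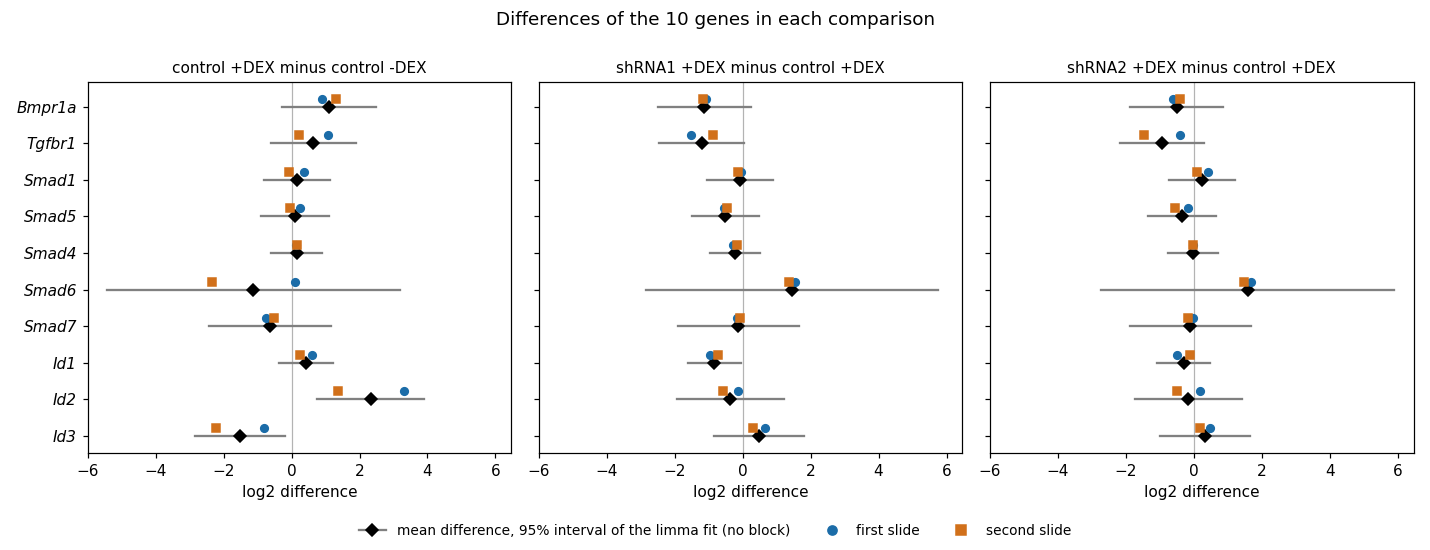
Log2 differences of the 10 genes (diamonds, with the 95% interval of the limma fit) in the 3 comparisons, and the difference within each slide. Of the 30 intervals, those of Id2 and Id3 with DEX and of Id1 with shRNA1 do not include 0; these intervals are not adjusted for the number of genes, and no member passed after adjustment.

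The type I receptors Bmpr1a and Tgfbr1 had higher mean levels with DEX than without it in control cells. Bmpr1a encodes a type I receptor for BMPs, and its probe lies at chr14:35224339-35224398 (mm9). Its levels were -4.53 and -3.69 with shRNA1, -4.06 and -2.92 with shRNA2, -3.45 and -2.52 in control cells with DEX and -4.35 and -3.84 without DEX. On each slide the control array with DEX was the highest of the 4 and the shRNA1 array the lowest or, on the second slide, above only the array without DEX. The difference with DEX was 1.11 (SE 0.57), a fold of 2.15, at 0.90 and 1.32 on the slides (limma adjusted p = 1, with the block 0.145). The difference with shRNA1 was -1.13 (SE 0.57), at -1.08 and -1.17 on the slides (limma adjusted p = 0.922, with the block 0.232). With shRNA2 it was -0.51 (SE 0.57), and that group overlapped the control group with DEX. The signal was low: the DEX difference was 0.18 with the planned normexp and 0.62 after limiting the local background, and the shRNA1 difference -0.20 and -0.72.

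Tgfbr1 encodes the type I receptor for TGF-beta and was measured by 2 probes. The brighter probe lies at chr4:47427736-47427795 (mm9). Its levels were -3.28 and -2.53 with shRNA1, -2.15 and -3.11 with shRNA2, -1.74 and -1.64 in control cells with DEX and -2.81 and -1.86 without DEX. Both control arrays with DEX lay above the other 6. The difference was -1.21 (SE 0.51) with shRNA1, at -1.53 and -0.88 on the slides, and -0.94 (SE 0.51) with shRNA2, at -0.40 and -1.47 (limma adjusted p = 0.922 and 1). With DEX it was 0.64 (SE 0.51), at 1.07 and 0.21. The DEX difference was 0.16 without control without DEX replicate 1, and the planned normexp gave 0.15 for DEX, -0.34 for shRNA1 and -0.24 for shRNA2. The dimmer probe, at chr4:47424946-47425005, was well above background on 4 of 8 arrays. It gave 0.88 for DEX, -1.03 for shRNA1 and -0.83 for shRNA2 (SE 0.68 each). This probe entered the test through control cells with DEX alone, the only group with both arrays well above background. Its higher level there is therefore a description and no separate support for the brighter probe. Between shRNA1 and shRNA2 the brighter probe differed by -0.27 (SE 0.51), with slide values of -1.13 and 0.59.

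Among the members, the Smads that carry the signal had small differences beside their errors. Smad1 and Smad5 are receptor-regulated Smads of the BMP branch, and Smad4 is the common partner of both branches. Smad5 had levels of -0.58 and -0.0057 with shRNA1, -0.20 and -0.082 with shRNA2, -0.034 and 0.47 in control cells with DEX and -0.30 and 0.52 without DEX. The Smad5 difference was -0.51 (SE 0.41) with shRNA1, -0.36 (SE 0.41) with shRNA2 and 0.11 (SE 0.41) with DEX. Only the shRNA2 group among these lay wholly below control cells with DEX. A dimmer Smad5 probe gave -0.30 with DEX and 0.45 with shRNA2 (SE 0.68 each), opposite in sign to the brighter one. The Smad4 levels ran from 0.46 to 1.01 over the 8 arrays, the narrowest range of the members. Its differences were -0.22 with shRNA1, -0.022 with shRNA2 and 0.15 with DEX (SE 0.31 each), with 95% intervals of -0.97 to 0.52, -0.77 to 0.72 and -0.60 to 0.89. A second Smad4 probe gave -0.44, -0.043 and 0.40 (SE 0.43 each). Smad1 was well above background on 6 of 8 arrays, and its differences were -0.089 with shRNA1, 0.25 with shRNA2 and 0.15 with DEX (SE 0.40 each); the 2 other Smad1 probes were not well above background in any whole group and were not tested.

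The inhibitory Smads were dim and followed the slide more than the group. Smad6 acts mainly against the BMP branch, and its probe lies at chr9:63800980-63801039 (mm9). Its levels were -3.83 and -7.38 with shRNA1, -3.67 and -7.27 with shRNA2, -5.36 and -8.75 in control cells with DEX and -5.45 and -6.41 without DEX. In every group the array on the second slide was the lower, and with either hairpin or in control cells with DEX it was not well above background. The Smad6 difference was 1.45 with shRNA1 and 1.59 with shRNA2 (SE 1.77 each), at 1.53 and 1.37 on the slides for shRNA1 and 1.68 and 1.49 for shRNA2. With DEX it was -1.12 (SE 1.77), at 0.093 and -2.34. Without control with DEX replicate 2 these 3 differences turned to -0.25, -0.11 and 0.57, and they were 0.063, 0.078 and -0.029 with the planned normexp and 0.25, 0.31 and -0.13 after limiting the local background. Smad7 inhibits both branches, and it had levels of -5.61 and -4.24 with shRNA1, -5.47 and -4.35 with shRNA2, -5.44 and -4.17 in control cells with DEX and -4.68 and -3.65 without DEX. On each slide the Smad7 array without DEX was the highest, while the groups overlapped across slides. The Smad7 difference was -0.64 with DEX, -0.13 with shRNA1 and -0.11 with shRNA2 (SE 0.73 each), and on the slides it was -0.75 and -0.52 with DEX.

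Counted by whether the arrays of the groups overlap, 4 of 10 members were wholly higher with DEX (Bmpr1a, Tgfbr1, Id1 and Id2), against 10.1% of all genes, and 1 (Id3) was wholly lower, against 17.2%; either way, 5 of 10 stood against 27.3%. With shRNA1, 3 were wholly lower (Bmpr1a, Tgfbr1 and Id1), against 7.59%, and 0 wholly higher, against 17.9% (either way, 25.5%). With shRNA2, 3 were wholly lower (Tgfbr1, Smad5 and Id1), against 8.11%, and 0 wholly higher, against 7.38% (either way, 15.5%). The median difference of the members was 0.15 with DEX against -0.082 for all genes, -0.30 with shRNA1 against 0.18 and -0.14 with shRNA2 against 0.019. In the direct comparison, shRNA1 minus shRNA2, no member passed (limma, 0 of 10, against 0% of all genes with or without the block), and 1 member, Id1, was wholly lower, against 4.69% (either way, 16.7%). For shRNA1 minus shRNA2, 0 members had an unadjusted p below 0.05 without the block (against 2.38%) and 2, Bmpr1a and Id1, had one with it (against 10.9%).

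By mean level, control cells with DEX ranked first of the 4 groups for Bmpr1a, Tgfbr1, Smad4, Smad5, Id1 and Id2, and last for Smad6 and Id3. The share of all genes with such ranks, or with the separations below, was not counted, so this order only describes the members. The neighbouring groups in that order were separated on the arrays in few cases. These were the control with DEX above the next group for Tgfbr1 and Id1, shRNA1 below the next group for Id1, the control without DEX below the next for Id2 and above the next for Id3. All other neighbours in the order overlapped.

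The other genes of the pathway, counted here together with 7 genes listed as Id partners, comprised 91 listed names, of which 63 were measured well enough to be tested. As with the members, 0 of 63 passed in any of the comparisons in limma, with or without the block. At an unadjusted p below 0.05 with the block, 8 were higher and 1 lower with DEX (9.53% of all genes either way), 13 higher and 6 lower with shRNA1 (17.8%), and 6 higher and 1 lower with shRNA2 (5.72%). Without the block 4 were higher and 0 lower with DEX (3.14%), 1 higher and 1 lower with shRNA1 (2.13%), and 1 higher and 0 lower with shRNA2 (1.24%). Wholly higher or wholly lower were 12 and 8 of 63 with DEX (10.1% and 17.2% of all genes), 10 and 7 with shRNA1 (17.9% and 7.59%), and 5 and 3 with shRNA2 (7.38% and 8.11%). Their median difference was 0.054 with DEX, 0.30 with shRNA1 and 0.15 with shRNA2, each within 0.14 of that of all genes.

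**Figure D3:**
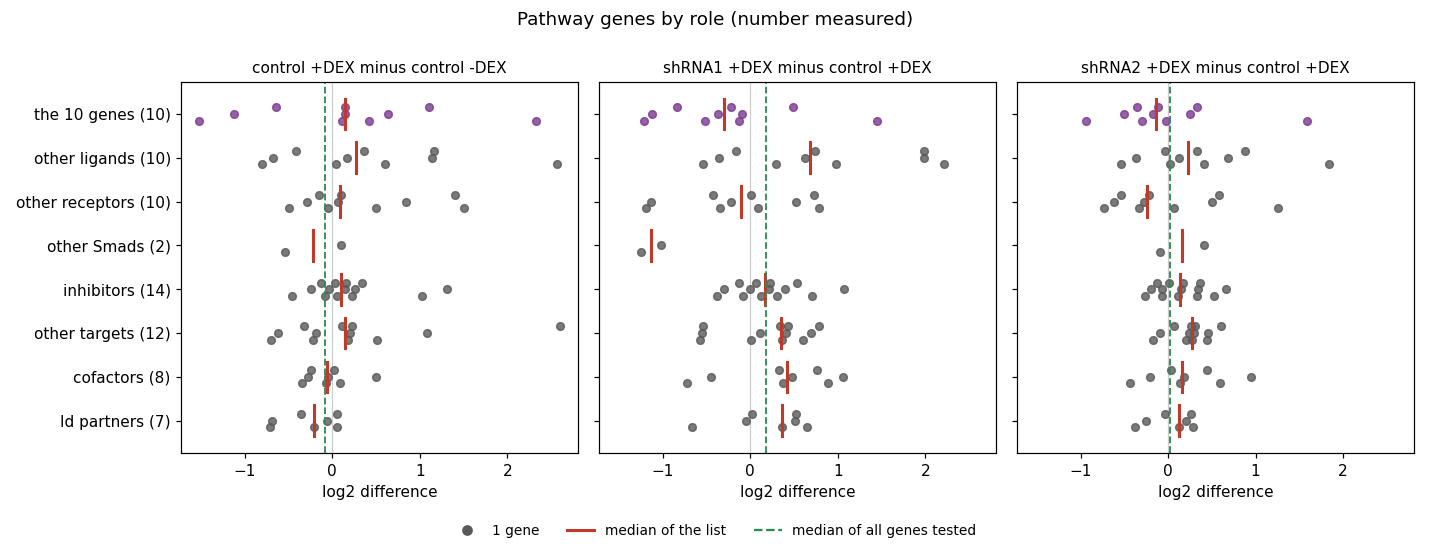
Log2 differences of the 10 genes and of the other measured pathway genes with the listed Id partners, by role, in the 3 comparisons. Red bars are list medians and the dashed line is the median of all genes tested. The lists scatter on both sides of that line, except that both other Smads lie below it with shRNA1 (median -1.13). The medians for the other receptors are 0.088 with DEX, -0.10 with shRNA1 and -0.25 with shRNA2.

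Among the other receptors, Tgfbr2, the type II receptor that pairs with Tgfbr1, had levels of -0.58 and -0.39 with shRNA1, -0.18 and 0.52 with shRNA2, 0.84 and 0.58 in control cells with DEX and -0.84 and -0.75 without DEX. Both control arrays with DEX were the highest of the 8 and both arrays without DEX the lowest. The Tgfbr2 difference was 1.51 (SE 0.34) with DEX, -1.19 (SE 0.34) with shRNA1 and -0.54 (SE 0.34) with shRNA2 (limma adjusted p = 0.658, 0.922 and 1, with the block 0.116, 0.235 and 0.776). A dimmer Tgfbr2 probe gave 0.91, 0.085 and 0.29, so the hairpin differences had the opposite sign there. Acvr1b, a type I receptor for activins, had levels of 0.90 and -0.076 in control cells with DEX, against -0.79 and -1.19 without DEX. Its difference of 1.40 (SE 0.53; limma adjusted p = 1, with the block 0.095) was 1.35 on a second probe. Of the other type I receptors measured, Acvr1 differed by -0.49 (SE 0.57) and Acvrl1 by 0.071 (SE 0.74) with DEX, so higher mean levels with DEX were not shared by all of them. Acvr2b, a type II activin receptor, had levels of 1.58 and 1.24 with shRNA2, against 0.29 and 0.0094 in control cells with DEX, a difference of 1.26 (SE 0.34), and its difference with shRNA1 was 0.72 (SE 0.34; limma adjusted p = 1 and 0.922).

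**Figure D4:**
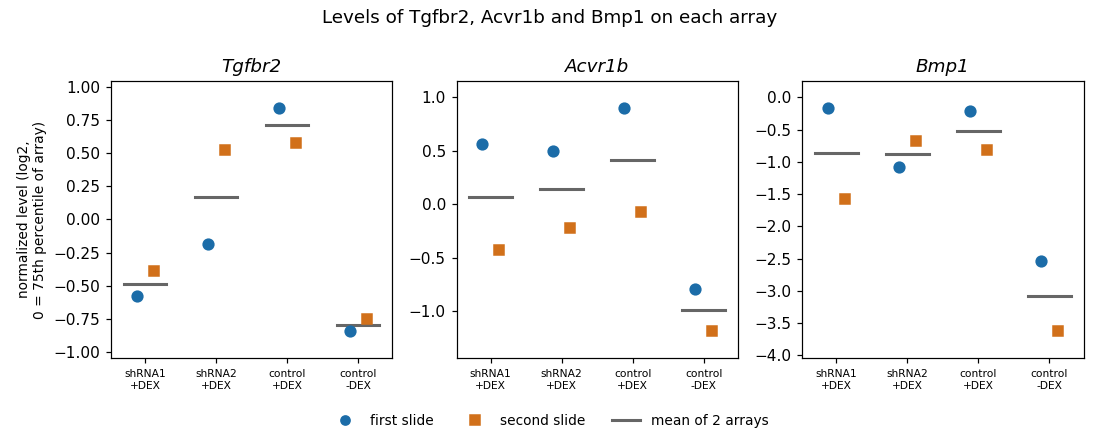
Normalized level (log2, 0 at the 75th percentile of the array) of Tgfbr2, Acvr1b and Bmp1 on each array, with a bar at the mean of the 2 arrays. For each gene both control arrays with DEX lie above both arrays without it, and both Tgfbr2 arrays with shRNA1 lie below those of control cells with DEX.

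Bmp1, which despite its name encodes a metalloproteinase and not a ligand of this family, differed by 2.57 (SE 0.61) with DEX on its brightest probe. Its levels there were -0.22 and -0.82 with DEX, against -2.54 and -3.63 without, but the 2 other Bmp1 probes gave -0.027 and -0.13. Of the ligands, Inhba and the probe that stood for Gdf5 entered the test through shRNA1 alone, the group with both arrays well above background. Their higher levels there are therefore a description. That Gdf5 probe had levels of -3.90 and -2.99 with shRNA1, against -4.86 and -6.47 in control cells with DEX, where 1 of 2 arrays was well above background. The planned normexp gave a difference of 0.18. A second Gdf5 probe was well above background on all 8 arrays. It gave 0.80 with shRNA1, 0.44 with shRNA2 and -0.21 with DEX. Inhba, which encodes an activin subunit, was not well above background in control cells with or without DEX. Its levels were -4.35 and -5.41 with shRNA1, against -6.70 and -7.04 in control cells with DEX. That difference was 1.99 (SE 1.05), and 0.083 with the planned normexp. A p-value for it decides nothing, because shRNA1 alone brought Inhba into the test. With shRNA2 the Inhba levels were -3.37 and -6.70, with 1 of 2 arrays well above background.

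Smad2 and Smad3 are the receptor-regulated Smads of the TGF-beta branch. Smad2 had levels of -2.71 and -1.55 with shRNA1, against -1.19 and -0.58 in control cells with DEX. That difference of -1.25 (SE 0.61) was -1.52 and -0.97 on the slides (limma adjusted p = 0.922, with the block 0.232), and -0.43 with the planned normexp. Smad3, added here as the other Smad of that branch after its values were seen, had levels of -2.48 and -1.32 with shRNA1, -0.40 and -0.55 with shRNA2, -1.38 and -0.37 in control cells with DEX and -0.62 and -0.062 without DEX. Its difference was -1.02 (SE 0.53) with shRNA1, with overlapping groups, and -1.43 (SE 0.53) for shRNA1 minus shRNA2, without overlap (limma adjusted p = 0.922 and 1, with the block 0.264 and 0.33). Of the other genes named by the size of their difference with shRNA1, the E protein gene Tcf12 differed by -0.66, where a second probe gave 0.52. Myc, which TGF-beta is known to repress in many cells, differed by -0.58, and Zfp423, which encodes a zinc finger cofactor of BMP-responsive Smads, by 0.76 (0.024 with the planned normexp). With shRNA2 the smaller differences named by the same rule were the E protein gene Tcf4 at 0.20 (and -0.043 with the array median as the scale), Lyl1, a relative of Tal1, at 0.29 (0.042 with that scale), the ubiquitin ligase gene Smurf1 at 0.32 (0.021 with the planned normexp), the TGF-beta-induced gene Klf10 at -0.18 and Trim33, whose product binds Smads, at -0.44 (-0.15 with the planned normexp).

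Tal1, a master regulator of blood formation, had levels of 3.83 and 3.42 in control cells with DEX, against 4.35 and 4.33 without DEX, a difference of -0.71 (SE 0.37; limma adjusted p = 1, with the block 0.355). Lmo2, which bridges Tal1 and Gata1 complexes, differed by -0.69 (SE 0.40), and Tsc22d1, a target of TGF-beta, by -0.70 (SE 0.41). The 7 genes listed as Id partners were the E protein genes Tcf3, Tcf4 and Tcf12 beside Tal1, Lyl1, Lmo2 and Ldb1, which do not encode E proteins. Of the 7, 5 were lower and 2 higher with DEX, with a median of -0.20, against -0.082 for all genes. Wholly lower were 3 of the 7 (Tcf4, Tal1 and Lmo2), against 17.2% of all genes, and wholly higher 0, against 10.1%. For Tcf4 the DEX difference was -0.36, while a second probe, well above background on all 8 arrays, gave 0.16.

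The genes whose levels over the 8 arrays were most like those of each Id gene, by root mean square log2 difference after centring each gene, were Traf3 (0.086), Trim13 (0.088) and Tmem205 (0.105) for Id1, beside 1 probe with no gene name. For Id2 they were Perp (0.243), Cd84 (0.341), S100a10 (0.346) and Acod1 (0.358). For Id3 they were Gm1966 (0.281) and Gem (0.296), beside 2 probes or transcripts with no gene name (0.178 and 0.268). These were the closest of 19122 genes over 8 arrays, and likeness of level is all that the measure holds.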

How the data were processed

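Per the labels, Cy3-labelled total RNA of 8 samples was measured on 1-colour arrays. Per the file headers, the authors quantified the deposited intensity with Agilent Feature Extraction 10.1.1.1, with spatial and multiplicative detrending on; limma also stands in the submitters' processing notes, with no version. The authors' deposited log2 table, with no stated steps, ranked spots exactly as the median signal of their own arrays did (Spearman correlation 1 in each), had medians of 6.65 to 6.66, and served as an alternative; its normalization stays unstated.

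Control spots (1377 of 44397) and spots with an outlier mark were left out, spots of a probe were averaged, and log2 of the processed signal was scaled to the 75th percentile of the array. Probes entered the test when 1 or more groups had them well above background on each array, and the brightest probe stood for a gene (3899 of 19122 genes had several). Probe positions are those of the file (mm9), with no annotation of that build, so exon or untranslated region is not stated. Names of 26581 probes came through accessions from RefSeq (GRCm38.p6), and 12848 kept the file's name. A single limma 3.58.1 fit (R 4.3.3, lmFit and eBayes) of all 8 arrays gave the comparisons. The number of arrays limits the precision. The replicate number is the slide per the file headers, and over all genes the replicate 1 minus replicate 2 difference correlated between groups at 0.43 to 0.86, so it was used as a block beside the fit without one. The members and lists were chosen with earlier results of these data known. Named pathway genes were the 4 largest differences in each direction, in each of 3 comparisons, among genes whose arrays did not overlap; 1 of them is not reported here.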

Additional observations from a re-analysis of the deposited data

How the results depend on the processing

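No member passed the threshold in limma under any alternative: the array median or quantile normalization as the scale, both forms of normexp, the authors' log2 table, no filter on dim probes, the replicate block, or each of the 8 arrays left out. The counts of called members and of called pathway genes were 0 in each. The count of all genes called was 42 for DEX and 1 for shRNA2 with the replicate block and 0 otherwise. The pairing through the slide changed no call of a member. The DEX differences of Id2 and Id3 and the shRNA1 differences of Id1, Bmpr1a and Tgfbr1 kept their sign under each of these alternatives. Direction turned in the shRNA2 comparison for Smad4 with quantile normalization (0.0012), the planned normexp (0.028), normexp with limited local background (0.041) and the authors' values (0.044), for Smad1 with quantile normalization (-0.042) and the 2 forms of normexp (-0.00060 and -0.0034), and for Id3 in the authors' values (-0.019). For shRNA1 minus shRNA2 it turned for Id3 with the 2 forms of normexp (-0.00093 and -0.0034) and for Smad7 with limited local background (0.0020). Normexp with limited local background was chosen after seeing the data. Leaving out 1 array leaves the slides unbalanced and a lone array assumed to vary like the other groups, and turned the sign of these member differences for at least 1 array. For DEX the ranges were Smad1 -0.086 to 0.38, Smad5 -0.30 to 0.51 and Smad6 -2.82 to 0.57. For shRNA1 the ranges were Smad1 -0.36 to 0.19, Smad6 -0.33 to 3.23, Smad7 -0.81 to 0.56, Id2 -0.77 to 0.036 and Id3 -0.0029 to 0.98. For shRNA2 the ranges were Bmpr1a -1.08 to 0.063, Smad1 -0.15 to 0.64, Smad4 -0.16 to 0.11, Smad6 -0.21 to 3.38, Smad7 -0.75 to 0.52, Id2 -0.70 to 0.36 and Id3 -0.14 to 0.79. For shRNA1 minus shRNA2 the ranges were Tgfbr1 -0.75 to 0.21, Smad1 -0.73 to 0.060, Smad5 -0.44 to 0.13, Smad6 -1.93 to 1.66, Smad7 -0.70 to 0.67, Id2 -0.73 to 0.33 and Id3 -0.33 to 0.65. Dim signal limits Smad1, Smad6 and Smad7, which were well above background on 6, 5 and 6 of 8 arrays.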
